A study of Mus musculus with 4 samples.

Results

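Nuclear genes that encode subunits of the oxidative phosphorylation system were examined in an ATAC-seq data set of mouse hematopoietic stem and progenitor cells. The genes were chosen by name alone: a gene was a member when an interval of the deposited table listed a symbol beginning with Nduf and a subunit letter and number, Sdha to Sdhd, or a symbol beginning with Uqcr, Cox4 to Cox8 or Atp5. This gave 82 of the 20811 genes listed, and 687 of the 220733 intervals listed at least 1 of them. By complex, 36 members belonged to complex I, 4 to complex II, 8 to complex III, 17 to complex IV and 17 to complex V by symbol.

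ATAC-seq maps accessible DNA with a transposase that inserts sequencing adapters into it. The study sorted Lin-Sca1+Kit+ (LSK) bone marrow cells, a gate that holds blood stem cells and early progenitors, to ask how mutant p53 acts on transcription there. Of the 4 libraries, 2 came from mice with 1 mutant allele of the tumor suppressor p53, p53R248W/+ (R248W 1 and R248W 2), and 2, named WT 1 and WT 2, from p53+/+ mice. Each was made from 50000 sorted cells. No drug or other treatment was named for any library, and the labels gave no age, sex or strain background. They also left unsaid whether R248W 1 and R248W 2, or WT 1 and WT 2, were different animals, so their spread may be technical.

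The respiratory chain passes electrons from NADH through complex I, and from succinate through complex II, by way of coenzyme Q to complex III and then by way of cytochrome c to complex IV, which reduces oxygen. Complexes I, III and IV pump protons across the inner mitochondrial membrane, and complex V, the ATP synthase, uses the gradient to make ATP. Most subunits are encoded in the nucleus and have broadly used promoters, but several have paired isoforms used in heart, skeletal muscle, lung or testis. Quiescent blood stem cells are known to rely less on oxidative phosphorylation than the progenitors they give rise to, and both are in the LSK gate.

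The table held 60385 intervals for R248W 1 and 51150 for R248W 2, against 46720 for WT 1 and 62478 for WT 2, each called in its own library. Each interval carried a highest-bin signal, the authors' own value for the tallest bin within it, which ran from 16 to 1298 over the 4 libraries. The medians were 62 in R248W 1 and 50 in R248W 2, against 52 in WT 1 and 62 in WT 2. Read depth and scaling were unknown, so signals were ranked within a library only, as a percentile among all its intervals. A start-site interval was one whose summit lay within 1000 bases of the gene start listed by the authors, and an interval missing from a list does not show closed chromatin. Of 10 stem and progenitor markers, 8 had a start-site interval in all 4 libraries, Kit and Flt3 among them, while Ly6a and Gata2 had none. None of the 5 T and NK cell, 4 B cell and 4 granulocyte markers had one in all 4 libraries, but 2 of 4 erythroid markers and 3 of 4 stromal and endothelial markers did.

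A start-site interval was present in all 4 libraries at 72 of the 82 members (87.8%). The same held for 60.1% of all genes listed and 66.2% of the protein-coding genes among them. The share was 32 of 36 in complex I, 4 of 4 in complex II, 8 of 8 in complex III, 13 of 17 in complex IV and 15 of 17 in complex V. Among gene groups of similar general use, it was 94.7% of 75 mitochondrial ribosomal protein genes, 95.8% of 48 proteasome subunit genes and 73.9% of 111 cytosolic ribosomal protein genes. Of the 45 assembly factors of the complexes, 42 had a start-site interval in all 4 libraries (93.3%), and Surf1, Sco2 and Cox14 had none. The remaining members were Cox7b, with a start-site interval in 1 library, and 9 genes with none: Ndufs7, Ndufs8, Ndufa6, Atp5f1, Atp5g2, Cox6a2, Cox7b2, Cox8b and Ndufa4l2.

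**Figure D1:**
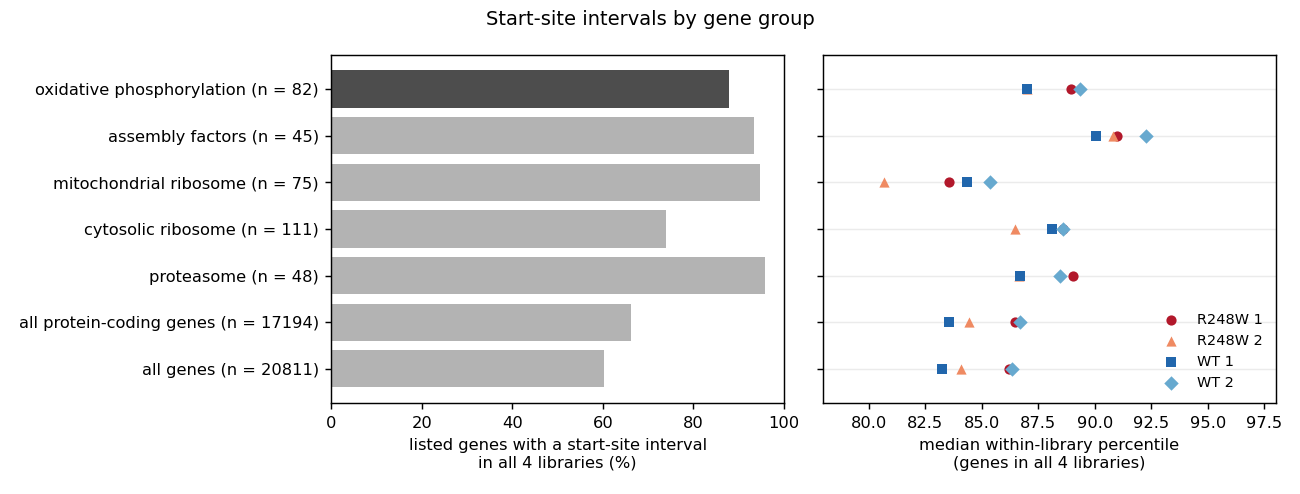
Left, the percentage of listed genes with a start-site interval in all 4 libraries; right, the median within-library percentile of those intervals, 1 symbol per library, for 7 sets of genes. The oxidative phosphorylation genes lie at 87.8%, against 60.1% of all genes, and their medians lie between 87.0 and 89.3.

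The promoters below show the range of sequence behind these start sites. Each is the RefSeq window from 250 bases before to 50 bases after the gene start on GRCm38.p6, the build of the intervals, written 5′ to 3′ on the gene's own strand. Capitals mark exact matches, on either strand, to the cores of NRF1 (GCATGCGC), the ETS and GABP factors (CCGGAAGT), YY1 (GATGGCGG), SP1 (GGGCGG), CREB (TGACGTCA) and the TATA box (TATAAA), where adjacent or overlapping matches join. The first 5 come from members with high intervals, 1 for each complex: Ndufv2 (chr17:66101510-66101809, minus strand), Sdhb (chr4:140961021-140961320, plus strand), Uqcrfs1 (chr13:30545267-30545566, minus strand), Cox7c (chr13:86046746-86047045, minus strand) and Atp5g1 (chr11:96075582-96075881, minus strand). Atp5j (chr16:84834927-84835226, minus strand, 1 of its starts in RefSeq) is shown because its interval also covers the start of Gabpa, which encodes a subunit of a regulator of this gene set. Ndufa9 (chr6:126849095-126849394, minus strand) had the greatest difference between the genotypes, Cox7b (chrX:106015450-106015749, plus strand) had an interval in 1 library, and Ndufs7 (chr10:80249199-80249498, plus strand) had none.
Ndufv2: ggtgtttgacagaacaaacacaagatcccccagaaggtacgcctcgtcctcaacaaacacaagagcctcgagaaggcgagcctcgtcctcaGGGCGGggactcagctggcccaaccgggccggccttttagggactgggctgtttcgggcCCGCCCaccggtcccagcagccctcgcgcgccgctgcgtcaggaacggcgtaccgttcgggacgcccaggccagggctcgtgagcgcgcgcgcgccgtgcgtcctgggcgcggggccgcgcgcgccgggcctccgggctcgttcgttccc
Sdhb: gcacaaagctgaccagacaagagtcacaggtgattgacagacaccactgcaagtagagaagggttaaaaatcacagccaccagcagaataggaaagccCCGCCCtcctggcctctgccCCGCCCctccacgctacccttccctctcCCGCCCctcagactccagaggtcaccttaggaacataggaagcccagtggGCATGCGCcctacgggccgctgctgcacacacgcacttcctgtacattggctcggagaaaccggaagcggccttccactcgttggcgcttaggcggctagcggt
Uqcrfs1: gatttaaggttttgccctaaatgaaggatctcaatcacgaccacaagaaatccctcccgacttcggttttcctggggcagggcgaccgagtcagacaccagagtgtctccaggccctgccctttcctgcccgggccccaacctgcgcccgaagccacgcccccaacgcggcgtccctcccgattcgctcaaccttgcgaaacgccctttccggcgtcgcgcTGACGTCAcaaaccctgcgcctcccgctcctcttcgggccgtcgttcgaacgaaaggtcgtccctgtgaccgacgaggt
Cox7c: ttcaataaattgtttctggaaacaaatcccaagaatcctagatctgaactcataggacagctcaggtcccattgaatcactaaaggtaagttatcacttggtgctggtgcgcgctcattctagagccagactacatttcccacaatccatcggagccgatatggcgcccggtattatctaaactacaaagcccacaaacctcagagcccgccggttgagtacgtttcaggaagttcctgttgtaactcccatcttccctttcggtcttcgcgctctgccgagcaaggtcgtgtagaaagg
Atp5g1: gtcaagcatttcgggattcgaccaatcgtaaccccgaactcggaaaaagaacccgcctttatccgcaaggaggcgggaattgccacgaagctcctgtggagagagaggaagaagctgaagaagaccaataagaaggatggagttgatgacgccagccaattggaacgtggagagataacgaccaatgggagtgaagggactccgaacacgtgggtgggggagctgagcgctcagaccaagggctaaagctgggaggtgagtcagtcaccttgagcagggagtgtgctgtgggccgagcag
Atp5j: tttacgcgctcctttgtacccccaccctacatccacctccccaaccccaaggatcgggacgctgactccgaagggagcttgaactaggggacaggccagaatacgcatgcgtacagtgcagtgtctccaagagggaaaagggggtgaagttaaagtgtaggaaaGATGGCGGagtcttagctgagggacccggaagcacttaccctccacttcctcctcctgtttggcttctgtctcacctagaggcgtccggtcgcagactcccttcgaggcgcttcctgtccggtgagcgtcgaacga
Ndufa9: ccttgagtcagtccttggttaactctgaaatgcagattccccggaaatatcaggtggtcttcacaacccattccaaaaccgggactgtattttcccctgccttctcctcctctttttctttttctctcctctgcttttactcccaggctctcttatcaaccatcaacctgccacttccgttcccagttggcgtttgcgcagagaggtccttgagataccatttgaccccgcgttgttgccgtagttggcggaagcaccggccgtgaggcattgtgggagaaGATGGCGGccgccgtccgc
Cox7b: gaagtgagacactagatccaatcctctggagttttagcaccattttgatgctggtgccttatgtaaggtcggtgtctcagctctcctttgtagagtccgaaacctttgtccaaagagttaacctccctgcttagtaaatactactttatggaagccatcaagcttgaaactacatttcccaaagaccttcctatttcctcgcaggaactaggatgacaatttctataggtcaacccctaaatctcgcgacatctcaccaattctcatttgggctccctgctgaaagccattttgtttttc
Ndufs7: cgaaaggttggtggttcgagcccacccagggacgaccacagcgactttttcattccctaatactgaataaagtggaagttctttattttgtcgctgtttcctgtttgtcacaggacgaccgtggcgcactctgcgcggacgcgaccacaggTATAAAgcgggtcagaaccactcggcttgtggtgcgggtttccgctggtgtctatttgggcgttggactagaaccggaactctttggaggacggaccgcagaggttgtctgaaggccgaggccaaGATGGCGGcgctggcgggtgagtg

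The Ndufv2 window was 70.7% G and C with 39 CG pairs, while the Cox7b window was 43.3% with 5 CG pairs and held none of the motifs. Cox7c and Atp5g1, both among the members with the highest intervals, also had no exact match in their windows. Ndufs7 had both a TATA box match and a YY1 match and no start-site interval, so a match in the window did not go with an interval in every case.

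RefSeq promoter windows were found for 68 of the 82 members. A gene counted once if any of its windows held a match, so genes with several listed starts had more chances to match. The NRF1 core, the binding sequence of nuclear respiratory factor 1, was found in 10 of the 68 (14.7%). This compares with 3.94% of 17492 protein-coding genes and 5.95% of the 8598 that had a start-site interval in all 4 libraries. For YY1, a zinc finger factor of many promoters, the count was 7 (10.3%), against 2.62% and 4.19%. The CREB element was in 4 member promoters (5.88%), against 2.54% and 3.78%. By contrast the SP1 GC box was in 28 (41.2%), against 49.2% and 70.6%, and the ETS core in 5 (7.35%), against 5.69% and 9.18%. The TATA box letters were in 7 (10.3%), against 14.8% and 7.76%. The NRF1 share was 12.1% among mitochondrial ribosomal protein genes, 7.04% among cytosolic ribosomal protein genes and 7.32% among proteasome genes. In the same order, the YY1 share was 7.58%, 4.23% and 4.88%, and the CREB share was 3.03%, 7.04% and 0%. The ETS share was 18.2%, 18.3% and 22.0%, above that of the members in each. For SP1 it was 50.0%, 64.8% and 56.1%, and for the TATA box letters 7.58%, 12.7% and 9.76%. Median G and C content was 57.2% in the members, against 56.3% in all protein-coding genes and 61.3% in those with a start-site interval in all 4 libraries. A match describes letters and not a bound site, and these shares were not tested.

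**Figure D2:**
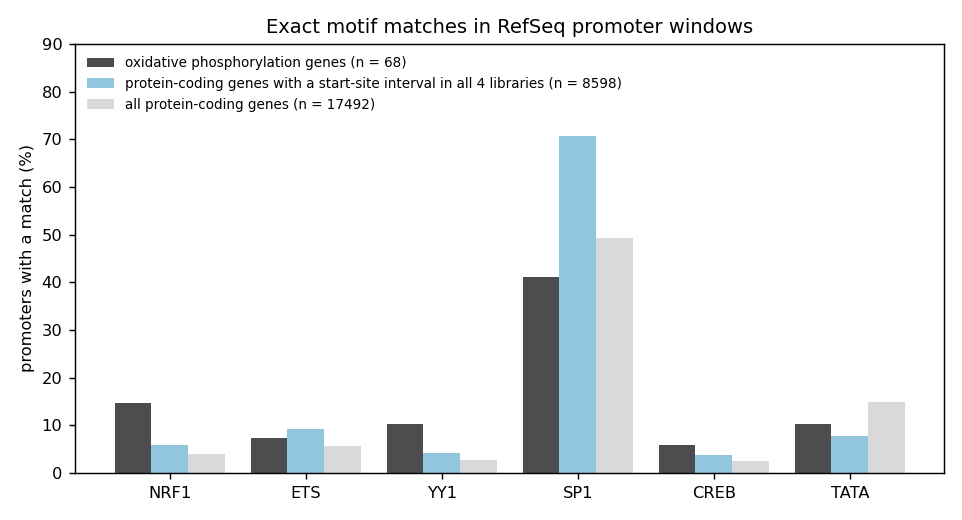
Percentage of genes with at least 1 exact match on either strand in any of their RefSeq promoter windows, for 6 motifs. Bars show members (dark), protein-coding genes with a start-site interval in all 4 libraries (blue) and all protein-coding genes (light). NRF1 stands at 14.7% in members against 3.94% of all protein-coding genes, and SP1 at 41.2% against 49.2%.

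The NRF1 matches are shown with their flanks, because nuclear respiratory factor 1 is a textbook regulator of respiratory chain genes. Each run is 30 bases on the gene's own strand of GRCm38.p6, credited to RefSeq, with the core in capitals. They lie at Atp5g2 (chr15:102671069-102671098, minus strand), Atp5k (chr5:108434429-108434458, minus strand), Cox6a1 (chr5:115349100-115349129, minus strand), Ndufa11 (chr17:56717693-56717722, plus strand), Ndufa6 (chr15:82354356-82354385, minus strand), Ndufa8 (chr2:36049328-36049357, minus strand), Sdhb (chr4:140961206-140961235, plus strand) and Uqcr11 (chr10:80406807-80406836, minus strand).
Atp5g2: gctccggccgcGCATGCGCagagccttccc
Atp5k: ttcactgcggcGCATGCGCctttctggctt
Cox6a1: aggaacggggcGCATGCGCgctctcgctcc
Ndufa11: ctgcactgcgcGCATGCGCgcacgccttgt
Ndufa6: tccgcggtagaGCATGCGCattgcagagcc
Ndufa8: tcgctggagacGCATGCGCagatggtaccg
Sdhb: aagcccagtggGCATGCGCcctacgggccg
Uqcr11: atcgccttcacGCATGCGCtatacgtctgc

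In Atp5g2, Atp5k, Cox6a1, Ndufa11 and Uqcrc1 the core lies in the palindrome GCGCATGCGC, so that it matches on both strands. The first base of the core lay at position -54 relative to the start in Sdhb, -8 in Ndufa8, -4 in Uqcr11 and -160 in Cox6a1, where negative positions are upstream. Atp5l and Uqcrc1 were the other members with this core. The 8 members that had it and a start-site interval in all 4 libraries had a median percentile of 84.3, against 88.1 for the 52 without it. Medians were also lower with the YY1 core (80.3, n = 6, against 88.1 without it) and the TATA box letters (77.2, n = 4, against 87.8). They were higher with the SP1 box (90.9, n = 24, against 85.8), the CREB element (92.7, n = 4, against 87.5) and the ETS core (90.9, n = 5, against 87.6). The motif groups share members, such as Atp5l (NRF1 and TATA), Ndufa7 (YY1 and TATA) and Uqcr11 (NRF1 and ETS). Most groups are small, and these differences were not tested.

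Start-site intervals of the members ranked high in every library. The median percentile of the 72 was 88.9 in R248W 1 and 87.0 in R248W 2, against 87.0 in WT 1 and 89.3 in WT 2. For all 12517 genes with a start-site interval in all 4 libraries it was 86.2 and 84.1 in the R248W libraries, against 83.2 and 86.3 in the WT libraries. Their mean percentile over the 4 libraries ran from 48.0 to 98.9. It was above 75 in 59 of the 72 members (81.9%), against 67.6% of all such genes, and above 90 in 32 (44.4%), against 36.5%. High rank was not particular to the members. The share above 75 was 67.6% in mitochondrial ribosomal protein genes, 81.7% in cytosolic ribosomal protein genes and 82.6% in proteasome genes. In the same order, the share above 90 was 33.8%, 37.8% and 39.1%. In the assembly factors the 2 shares were 92.9% and 52.4%. In signal, 33 of the 72 had their highest value in WT 2, and the medians were 242 and 154 in R248W 1 and R248W 2, against 158.5 and 242 in WT 1 and WT 2. Library order was alike for most members, with R248W 1 and WT 2, which also had the longer lists, above the other pair in 71 of 72.

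Complex III ranked highest and complex IV lowest in every library, with complexes assigned by symbol. Ndufa4, now assigned to complex IV, was thus counted in complex I. Complex III members had median percentiles of 93.3 and 92.3 in R248W 1 and R248W 2, against 91.4 and 93.2 in WT 1 and WT 2. In complex IV, with 14 members in R248W 1 and 13 in the other libraries, they were 84.7 and 82.4 in the R248W libraries, against 82.6 and 85.4 in the WT libraries. Complexes I, II and V lay between them. Complex I had 87.7 and 86.5 in R248W, against 86.5 and 88.6 in WT. Complex II had 90.2 and 86.9 in R248W, against 88.0 and 89.97 in WT, and complex V had 89.9 and 89.0 in R248W, against 89.4 and 90.8 in WT. The range of the R248W medians overlapped that of the WT medians in each of the 5 complexes.

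**Figure D3:**
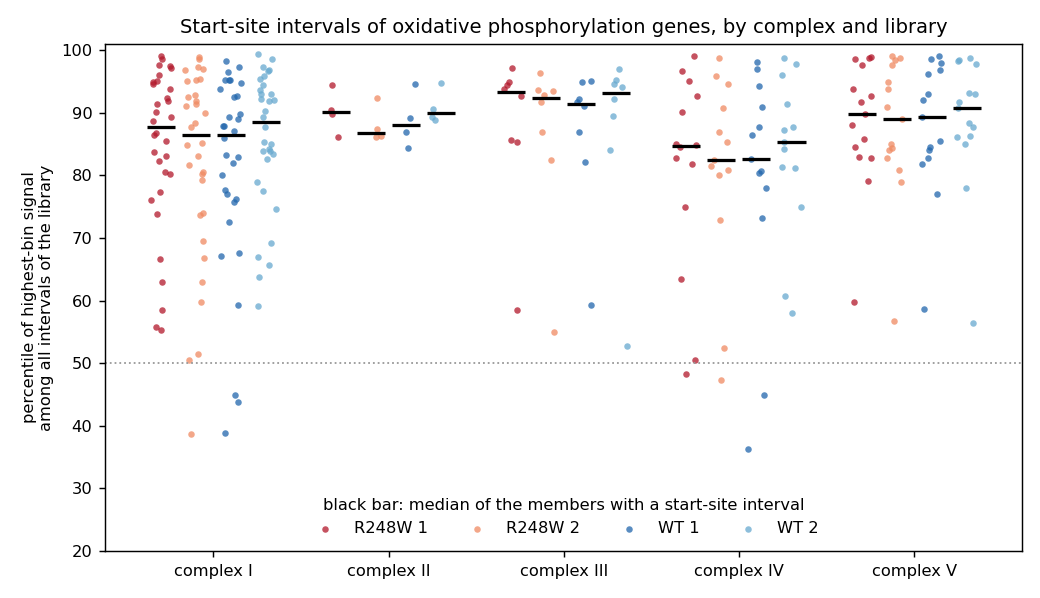
Within-library percentile of each member's start-site interval (points) by complex, with R248W 1, R248W 2, WT 1 and WT 2 from left to right in each complex and black bars at the median. Medians of complex III lie between 91.4 and 93.3 and those of complex IV between 82.4 and 85.4, and the genotypes overlap in every complex.

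In complex I, which oxidizes NADH, the highest interval was at Ndufv2, a subunit of the NADH-binding module with an iron-sulfur cluster. Its signal was 642 in R248W 1 and 400 in R248W 2, against 351 in WT 1 and 706 in WT 2, and its percentile was above 98 in all 4. Ndufa5, an accessory subunit of the matrix arm, had 569 and 382 in the R248W libraries, against 308 and 564 in the WT libraries. Both lay in the top 4% of each library's list. By mean percentile over the 4 libraries, the lowest complex I member with an interval in every library was Ndufa1, an X-linked accessory subunit needed for assembly, with 71 and 52 in the R248W libraries, against 46 and 77 in the WT libraries. These were percentiles of 55.3 and 51.5 in R248W, against 43.8 and 59.1 in WT. In R248W 2, Ndufa9 and Ndufc2 were lower, at 38.7 and 50.5, and in WT 1, Ndufb8 was lower, at 38.9. The 9 Ndufs and Ndufv members with intervals, the core of the matrix arm with some accessory subunits, had library medians of 90.1 and 88.3 in R248W, against 89.4 and 90.4 in WT. For the 23 Ndufa, Ndufb and Ndufc members, they were 85.5 and 83.2 in R248W, against 82.9 and 85.1 in WT. These are accessory, except that Ndufa4, counted here by symbol, is now assigned to complex IV.

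Complex II, succinate dehydrogenase, also serves the citric acid cycle, and all its 4 subunits are nuclear. Sdhb, the iron-sulfur subunit, ranked first, with signals of 348 and 206 in R248W 1 and R248W 2, against 243 and 350 in WT 1 and WT 2. Sdha, the flavoprotein, had 264 and 149 in R248W, against 141 and 242 in WT. Sdhc, a membrane anchor that binds quinone together with Sdhd, had 254 and 157 in R248W, against 176 and 235 in WT. Sdhd, the other anchor, had 207 and 148 in the R248W libraries, against 158 and 260 in the WT libraries. It was lowest of the 4 in both R248W libraries and by mean percentile, while Sdha was lowest in WT 1 and Sdhc in WT 2. The 4 stood close together, with mean percentiles over the libraries between 87.5 and 94.0.

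Complex III, cytochrome bc1, passes electrons to cytochrome c. Uqcrc2, a core protein, had signals of 459 and 279 in R248W 1 and R248W 2, against 250 and 440 in WT 1 and WT 2. Uqcrq, a small accessory subunit, had 365 and 223 in R248W, against 252 and 367 in WT. Uqcrb, known as the ubiquinone-binding protein, had 348 and 226 in R248W, against 194 and 336 in WT. Uqcrfs1, the Rieske iron-sulfur protein, ranked next by mean, at percentiles of 93.8 and 92.9 in R248W, against 91.7 and 94.6 in WT. The complex had 1 low member, Uqcr11, with 77 and 56 in the R248W libraries, against 64 and 66 in the WT libraries, and it was far below the other 7. Cyc1, the cytochrome c1 subunit, is not covered by the symbol rule. Its start site had 190 and 140 in the R248W libraries, against 92 and 175 in the WT libraries, while Cycs, the somatic cytochrome c gene, had no start-site interval.

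In complex IV, cytochrome c oxidase, the highest interval was at Cox7c, a small ubiquitous subunit, with 632 and 390 in R248W 1 and R248W 2, against 341 and 580 in WT 1 and WT 2. Cox7a2, the liver-type form of subunit 7a, had 434 and 269 in R248W, against 300 and 494 in WT. Cox8a, the ubiquitous form of subunit 8, had 368 and 241 in R248W, against 237 and 396 in WT. By mean percentile the lowest was Cox6c, with 63 and 48 in the R248W libraries, against 40 and 75 in the WT libraries. In R248W 1 alone Cox4i2 was lower. The percentile of Cox6c spread widely, at 50.5 and 47.3 in R248W, against 36.3 and 58.1 in WT. The WT libraries therefore enclosed both R248W libraries.

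Complex V makes ATP with a rotary motor. Atp5g1, which encodes the c subunit of the membrane ring, had 625 and 391 in R248W 1 and R248W 2, against 402 and 548 in WT 1 and WT 2. Atp5b, the catalytic beta subunit, had 570 and 415 in R248W, against 365 and 528 in WT. Atp5j, coupling factor 6 of the stalk, had 591 and 368 in R248W, against 333 and 588 in WT. These 3 lay above the 97th percentile in every library. Atp5l, subunit g of the membrane part, was lowest with 80 and 58 in the R248W libraries, against 63 and 72 in the WT libraries. The symbol rule also took in Atp5s and Atp5sl, whose products are not structural subunits of the synthase. Both had start-site intervals in all 4 libraries.

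**Figure D4:**
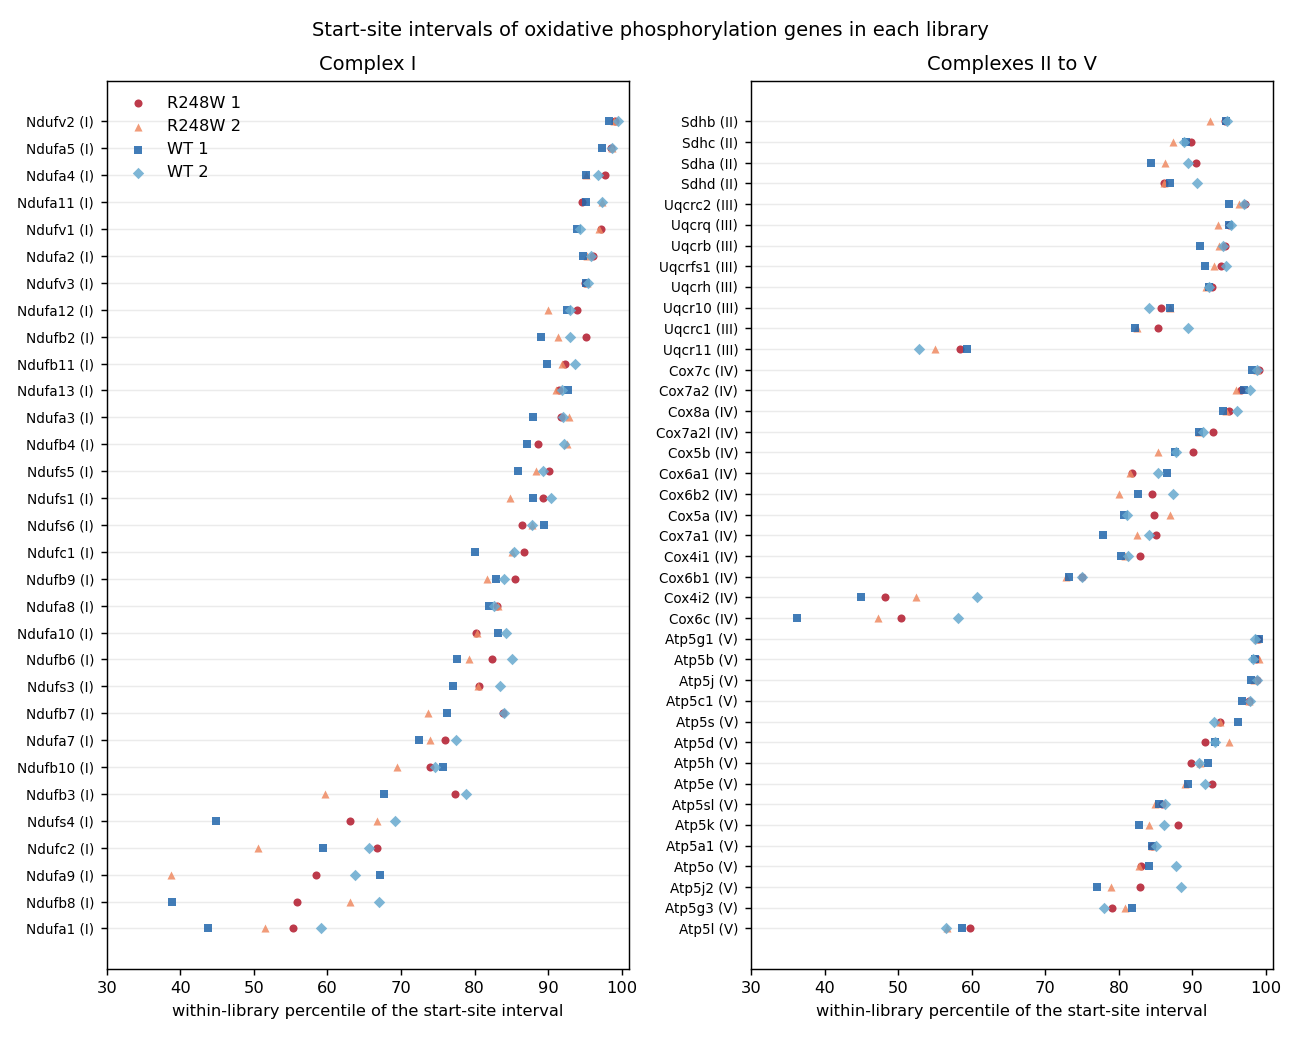
Within-library percentile of the start-site interval for members with one in all 4 libraries, complex in parentheses, sorted by mean within complex, with 1 symbol per library. Most have a mean above 75, and Ndufa9, Ndufb8, Ndufs4 and Cox6c spread most widely over the libraries, by 28.5, 28.1, 24.3 and 21.8 points.

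Isoforms known from other tissues had start sites both with and without an interval. Cox7a1, the heart and skeletal muscle form of subunit 7a, had 196 and 126 in the R248W libraries, against 109 and 183 in the WT libraries. Cox6b2, the testis form of subunit 6b, had 191 and 114 in R248W, against 130 and 215 in WT. Cox4i2, the lung form of subunit 4, had 60 and 53 in R248W, against 47 and 80 in WT. For comparison, Cox4i1, the ubiquitous form, had 177 and 118 in R248W, against 119 and 161 in WT, well above Cox4i2 in each library. Cox7a2 likewise lay above Cox7a1 in each library. The order was the reverse for subunit 6b. There Cox6b1 had 128 and 89 in R248W, against 93 and 125 in WT, below Cox6b2 in each library. No start-site interval was listed for Cox6a2 and Cox8b, muscle and heart forms, for Cox7b2, a second form of subunit 7b, or for Ndufa4l2, a hypoxia-induced paralog of Ndufa4. Near Ndufa4l2 a strong interval had its summit upstream, at -1931 and -1947 bases in the R248W libraries and -1979 and -1915 in the WT libraries, with signals of 243 and 144 in R248W, against 168 and 250 in WT. Ndufa4 itself, now assigned to complex IV, had 494 and 252 in R248W, against 255 and 430 in WT. Cox8c was not analysed here.

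Unlisted start sites were not limited to such isoforms. Ndufs7 and Ndufs8, core iron-sulfur subunits of complex I, Ndufa6, an accessory subunit, Atp5f1, subunit b of the synthase stalk, and Atp5g2, another c subunit gene, had no start-site interval in any library. From the RefSeq start of Ndufs7, the nearest interval of any kind was 10938 and 10904 bases away in R248W 1 and R248W 2, against 10904 and 10732 in WT 1 and WT 2. At Atp5f1 it was 26084 and 26076 bases away in R248W, against 25964 and 26084 in WT. At Atp5g2 the nearest lay 4810 and 5053 bases away in R248W, against 4879 and 4822 in WT, and at Ndufa6 it lay 6991 and 6854 bases away in R248W, against 7152 and 7117 in WT. At Ndufs8 they were at 5046 and 5126 in R248W, against 4985 and 5090 in WT. The absence was thus alike in both genotypes, and its origin was not tested.

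Cox7b, an X-linked gene for a small complex IV subunit, was the member with a start-site interval in a single library. In R248W 1 the interval chrX:106015101-106016412 had a signal of 88, the 63.4th percentile of that library, and its summit lay 12 bases inside the gene. In R248W 2, WT 1 and WT 2 no interval covered it, and the nearest lay 3150, 3126 and 3214 bases from the RefSeq start. All 4 libraries had the neighboring intervals at Magt1, with 292 and 181 in R248W, against 151 and 286 in WT, and at Atp7a, with 278 and 190 in R248W, against 194 and 258 in WT. Of 145 genes with a start-site interval in R248W 1 alone, 33 lay above that library's 50th percentile as Cox7b did. Ndufb11, also X-linked, had 298 and 200 in the R248W libraries, against 182 and 323 in the WT libraries, and its genotypes overlapped. The Y chromosome had 15 and 6 intervals in R248W 1 and R248W 2, against 13 and 11 in WT 1 and WT 2, and whether the sex of the mice bears on the X-linked values was not tested.

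The median percentile of the members differed little between the genotypes. The mean of the library medians was 88.0 ± 1.37 in R248W and 88.2 ± 1.65 in WT (SD, n = 2 libraries each), a difference of -0.198 percentile points that was smaller than either SD. For all genes it was 0.352 points. The absolute difference between genotype means had a median of 0.90 points over members, while the gap between libraries of a genotype had a median of 1.88 points in R248W and 2.10 in WT. Over all genes the corresponding values were 1.47, 2.31 and 2.94. The genotype difference averages 2 libraries on each side, while the gap compares single libraries. A smaller genotype difference is thus expected without any genotype effect, and it does not show that the genotypes are alike. The difference stayed within 1 point for 39 members (54.2%), against 39.7% of all genes. Members also ranked higher, with 44.4% above the 90th percentile, against 36.5% of all genes. Percentiles have less room to differ near the top of a list. Whether rank accounts for the smaller differences of the members was not tested. No member had a start-site interval in both R248W libraries and neither WT library, and none the reverse, against 0.375% and 0.202% of all genes. Without R248W 2, Cox7b counted as present in R248W alone.

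Both R248W percentiles lay above both WT percentiles at 6 members (8.33%), against 13.8% of all genes with a start-site interval in all 4 libraries. They lay below at 12 members (16.7%), against 10.7%. In mitochondrial ribosomal protein genes 4.23% were higher and 16.9% lower, and in proteasome genes 6.52% were higher and 19.6% lower. In cytosolic ribosomal protein genes 14.6% were higher and 9.76% lower. An exact permutation test of 2 libraries against 2, two-sided, gives at least p = 0.33, so no gene could pass 0.05 and these are counts only. The member counts moved with single libraries, and leaving one out also makes non-overlap easier, as 1 library then faces 2. Without R248W 1, 11 members were higher (15.3%, against 23.5% of all genes) and 27 lower (37.5%, against 36.2%) in R248W. Without R248W 2, 26 were higher (36.1%, against 40.9%) and 16 lower (22.2%, against 15.8%). With WT 1 left out, 12 were higher (16.7%, against 18.1%) and 36 lower (50%, against 43.5%), and with WT 2 left out, 35 were higher (48.6%, against 54.7%) and 17 lower (23.6%, against 16.6%). The direction with more members thus changed with the library left out, as it did over all genes.

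**Figure D5:**
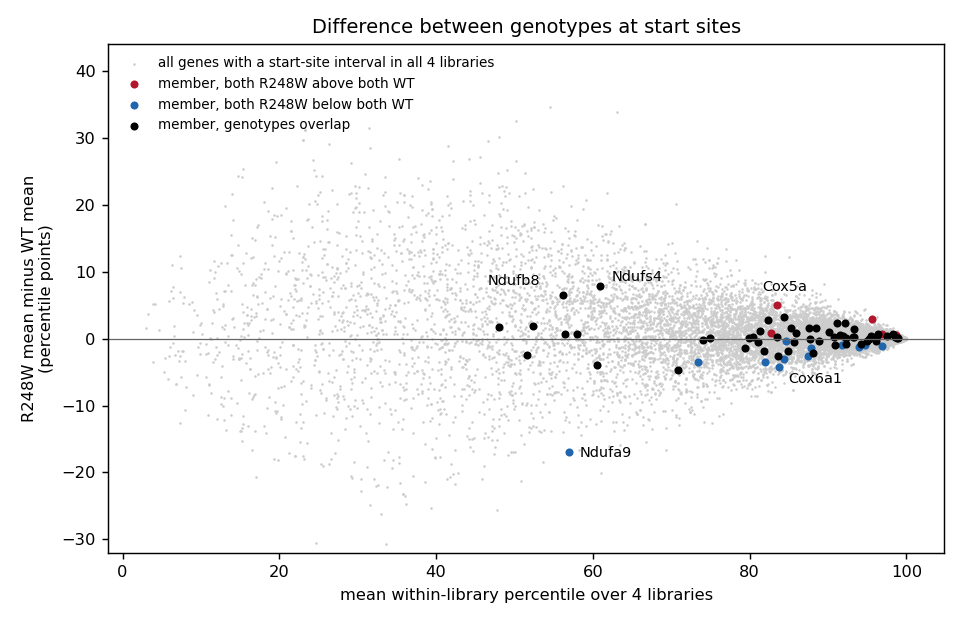
R248W mean minus WT mean of the within-library percentile (vertical axis, percentile points) against the mean over the 4 libraries (horizontal axis), for members (colored by whether the genotypes overlap) and all genes (gray). Ndufa9 lies lowest at -16.89 points.

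Among members with R248W higher, Cox5a, a complex IV subunit on the matrix side, differed most. Its signals were 194 and 154 in R248W 1 and R248W 2, against 121 and 160 in WT 1 and WT 2, and its percentiles were 84.8 and 87.0 in R248W, against 80.7 and 81.2 in WT, a difference of 4.98 points. Ndufv1, which holds the flavin that accepts electrons from NADH, had percentiles of 97.2 and 96.9 in R248W, against 93.9 and 94.4 in WT, with signals of 461 and 296 in R248W, against 231 and 341 in WT. Its difference was 2.93 points. Ndufa8 followed with 83.1 and 83.2 in R248W, against 82.0 and 82.7 in WT (0.80 points, and 0.44 without WT 1). Cox7c and Atp5b differed in this direction by 0.46 and 0.39 points.

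In the other direction Ndufa9, an accessory subunit at the junction of the matrix and membrane arms, stood apart. Its signals were 77 and 41 in R248W 1 and R248W 2, against 78 and 87 in WT 1 and WT 2, and its percentiles were 58.4 and 38.7 in R248W, against 67.2 and 63.7 in WT. The difference was -16.89 points, with an SD of 13.96 in R248W and 2.46 in WT, so the R248W libraries differed more from each other than the genotypes did. Without R248W 2 the difference was -7.02 points and without R248W 1 it was -26.76. The Ndufa9 interval carried no CpG island. Cox6a1, the liver-type form of subunit 6a, had 81.8 and 81.5 in R248W, against 86.5 and 85.4 in WT (-4.27 points). Ndufa10, a nucleoside kinase-like accessory subunit, had 80.2 and 80.3 in R248W, against 83.2 and 84.2 in WT (-3.52 points). Ndufb10, an accessory subunit of the membrane arm, had 73.9 and 69.5 in R248W, against 75.7 and 74.6 in WT (-3.46 points, and -1.23 without R248W 2 or -5.68 without R248W 1). The remaining 8 members with R248W lower were Atp5o, Sdhd, Ndufs6, Sdhb, Cox7a2, Ndufa13, Uqcrq and Atp5a1, with differences from -3.04 to -0.31 points.

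Ndufs4 and Ndufb8, both complex I subunits, had large mean differences without separation of the genotypes. Ndufs4 had percentiles of 63.0 and 66.8 in R248W, against 44.9 and 69.2 in WT. Ndufb8 had 55.8 and 63.0 in R248W, against 38.9 and 67.02 in WT. In both, WT 1 was the lowest and WT 2 the highest of the 4 libraries. The mean differences were 7.86 and 6.45 points, and without WT 1 they were -4.27 and -7.61.

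Several features that the symbol rule did not use were common among the members, and some of them also in gene groups of similar general use. A CpG island was listed at the start-site interval in every library for 65 of 72 members (90.3%), against 81.9% of all genes with such an interval. Those without one were Atp5j2, Cox4i2, Cox6b2, Cox7a1, Ndufa9, Uqcr10 and Uqcrb. The CpG island share was 97.2% in mitochondrial ribosomal protein genes, 96.3% in cytosolic ribosomal protein genes and 89.1% in proteasome genes. The summit lay a median of 63 bases from the listed start, against 94 in all genes, and within 250 bases in 64 members (88.9%), against 80.2%. In the same 3 groups, in that order, the median distance was 76, 78 and 67 bases. The share within 250 bases was 90.1%, 93.9% and 97.8%, above that of the members in each. Median interval length was 1631 bases in the members, against 1762 in all genes. For 49 of the 72 members (68.1%) the summit lay upstream of the start, against 62.4% of all genes.

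Start-site intervals shared with another gene were examined next. At 22 of 72 members (30.6%) the same interval also lay at the start of another gene, against 21.7% of all genes. The share was 35.2% in mitochondrial ribosomal protein genes, 26.8% in cytosolic ribosomal protein genes and 21.7% in proteasome genes. It was 40.5% in the assembly factors. At the 22 members the interval was shared in every library, a condition not checked for all genes or for these groups. The 22 included 11 of 32 members of complex I and 3 of 4 of complex II but 1 of 13 of complex IV. Examples were Ndufa7 with Rps28, a ribosomal protein gene, Ndufs1 with Eef1b2, a translation elongation factor gene, Sdhd with Timm8b, a mitochondrial import chaperone gene, and Atp5j with Gabpa. The value of such an interval cannot be assigned to either gene. In the Atp5j and Gabpa interval, chr16:84833998-84836811 in R248W 1, the summit lay 662 bases inside Atp5j in the R248W libraries.

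Beyond the start sites, the members were listed in 106 and 94 intervals in R248W 1 and R248W 2, against 89 and 109 in WT 1 and WT 2. Most of these lay outside the gene, and 9 and 5 lay within it in R248W, against 4 and 10 in WT. Atp5g2, Atp5s and Sdha had an interval within the gene in all 4 libraries. For Atp5g2 this stood beside the absence of a start-site interval.

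Factors that act on this gene set or on mitochondrial DNA mostly had start-site intervals too. Of 16 regulators of nuclear oxidative phosphorylation genes and of mitochondrial DNA, 13 had a start-site interval in all 4 libraries (81.25%, against 60.1% of all genes). Nrf1, nuclear respiratory factor 1, had 219 and 230 in the R248W libraries, against 158 and 296 in the WT libraries. Tfam, which packages and transcribes mitochondrial DNA, had 473 and 340 in R248W, against 253 and 509 in WT. Tfb1m, a mitochondrial ribosomal RNA methyltransferase, had 775 and 462 in R248W, against 451 and 740 in WT. Ppargc1a, a coactivator of mitochondrial biogenesis, and Gabpb2 had no start-site interval, and Polg2, an accessory subunit of the mitochondrial DNA polymerase, lacked one in R248W 1. Of the 13, R248W lay above WT at 1 (7.69%, against 13.8% of all genes) and below it at 3 (23.1%, against 10.7%).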

How the data were processed

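Intervals of 4 ATAC-seq libraries, grouped by the genotype in their labels, were read from 1 deposited table. The submitters' processing notes name mm10 as build and MACS 1.4.2 as a tool. The aligner, read filters, depth and signal scaling were not given in the sources used here. Per the file headers, the authors gave each interval a highest-bin and a mean-bin signal, CpG islands, and genes with the distance from summit to start. A member's highest interval with its summit within 1000 bases of its start was placed by percentile in its own library. The same was done for all genes, and the steps were tested on simulated data. Genotypes were compared by non-overlap of percentiles. Members and gene lists were chosen with earlier results of these data known. Named genes were the 3 highest members and the lowest per complex, members lacking an interval, the 4 leading non-overlapping differences in each direction, X-linked members and tissue isoforms. An item that this rule selects is not reported here. Others complete a complex or a count, or were chosen after their values were seen. All 82 members matched RefSeq symbols, 3 by an older symbol. Windows, ranking, signal, shared intervals and each library were varied. Analyses used python 3.11.15, pandas 2.3.3 and matplotlib 3.10.9.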

Additional observations from a re-analysis of the deposited data

How the results depend on the processing

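The count of members with a start-site interval in all 4 libraries was 66 to 74 under the other windows and list lengths and without the X-linked members. It was 11 when an interval had to list the member alone, by construction since most intervals list neighbors too. The difference of medians, R248W minus WT, ran from -1.37 to 0.969 points over all alternatives and was never larger than the SD of 1.52 between libraries of a genotype, and its sign was not stable. By mean-bin signal, 11 members were higher (against 15.2% of all genes) and 10 lower (against 10.3%) in R248W, so more members were lower by the highest bin but not by the mean bin. Members with R248W higher numbered 2 with the member alone, and from 11 to 35 with a library left out. Those with R248W lower numbered 1 with the member alone and from 16 to 36 with a library left out. Members with an interval in R248W only numbered from 0 to 1 with a library left out. Same-numbered libraries did not deviate together (correlation of deviations -0.015 over 12517 genes, 0.067 over members). With the replicate number as a replicate block, 10 members were higher and 14 lower in R248W, and the difference of medians was -0.198. The share of all genes was not available for this setting or with the member alone, so those counts have no background. Non-overlap counts with a library left out also rise by construction, since 1 library separates from 2 more easily than 2 from 2. Other causes of these shifts were not tested. Unknown depth limits weak start sites, and 2 libraries per genotype limit every comparison.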

Other observations

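Among the assembly factors, which insert cofactors and join subunits without staying in the complexes, the 42 with a start-site interval in all 4 libraries had median percentiles of 91.0 and 90.8 in R248W 1 and R248W 2, against 90.05 and 92.3 in WT 1 and WT 2. In 39 of them (92.9%) the mean percentile was above 75. R248W lay above WT at 5 (11.9%, against 13.8% of all genes) and below it at 4 (9.52%, against 10.7%). These values are descriptions of the lists and were not tested.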
